A study of Zea mays with 10 samples.

Results

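Stem RNA of the maize inbred line F7025 was compared with stem RNA of the inbred line F2 on the Affymetrix maize array, with 4 of the 10 arrays of the series, 2 for each line. F7025 is labelled as Flint-Dent with yellow grain and as derived from IodentXF113bm3. F2 is labelled as Flint and as derived from lacaune. Inbred lines are kept by selfing, so that the plants of 1 line are nearly alike in genotype. Plants were untreated and harvested on the same day. Behind each array stood 1 pool of 5 plants, so the 2 arrays of a line differ as pools do, and the labels do not say whether pools came from separate plots. The purpose of the series was to find wall genes that matter for the degradability of the stem. Values are log2 GCRMA values, on which an unhybridised probe set reads near 2, and a value under 4 was treated as being at the floor of the scale. Probe sets that reached 4 on at least 2 of the 4 arrays were kept and control probe sets were left out, which left 10510 of 17734 probe sets. Among them were 783 of the 1108 genes that the probe annotation names. Genes were taken in both directions, and every difference is given as F7025 minus F2.

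A maize stem carries vascular bundles in a ground of parenchyma, with a lignified rind around it. The walls that stiffen it hold cellulose made by synthase complexes at the plasma membrane, glucuronoarabinoxylan made in the Golgi, and lignin made from phenylalanine and polymerised in the wall by laccases and peroxidases. Lines can also differ in genes outside the wall, among them genes of water channels, sugar storage and defence. The secondary wall synthase genes cesa10, cesa11 and CesA12 read 10.45 to 12.04 on the 4 arrays. Genes of zeins, the storage proteins of the kernel, read 1.98 to 2.67 for 7 of the 8 listed, while the eighth, gz27, read 6.75 and 6.62 in F7025 and 6.18 and 7.02 in F2.

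The 2 arrays of F7025 correlated at r = 0.978 across tested probe sets and the 2 of F2 at r = 0.992, while an F7025 and an F2 array correlated at 0.816 to 0.845. Probe sets are not independent replicates, and these values describe the arrays only. On each array 57.7% to 58.2% of probe sets reached 4. The F7025 arrays were made from extracts of 60 µg RNA each, and the F2 arrays from 80 µg (replicate 1) and 20 µg (replicate 2). With limma and Benjamini-Hochberg adjustment, 4434 probe sets (42.2%) passed an adjusted p of 0.05, 1785 (17%) higher in F7025 and 2649 (25.2%) lower. Without F2 replicate 1 the count was 2840, and without F2 replicate 2 it was 2951. Both F7025 arrays lay above both F2 arrays at 3111 probe sets and below both at 4775, so that the arrays of the lines did not overlap at 75% of tested probe sets.

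**Figure D1:**
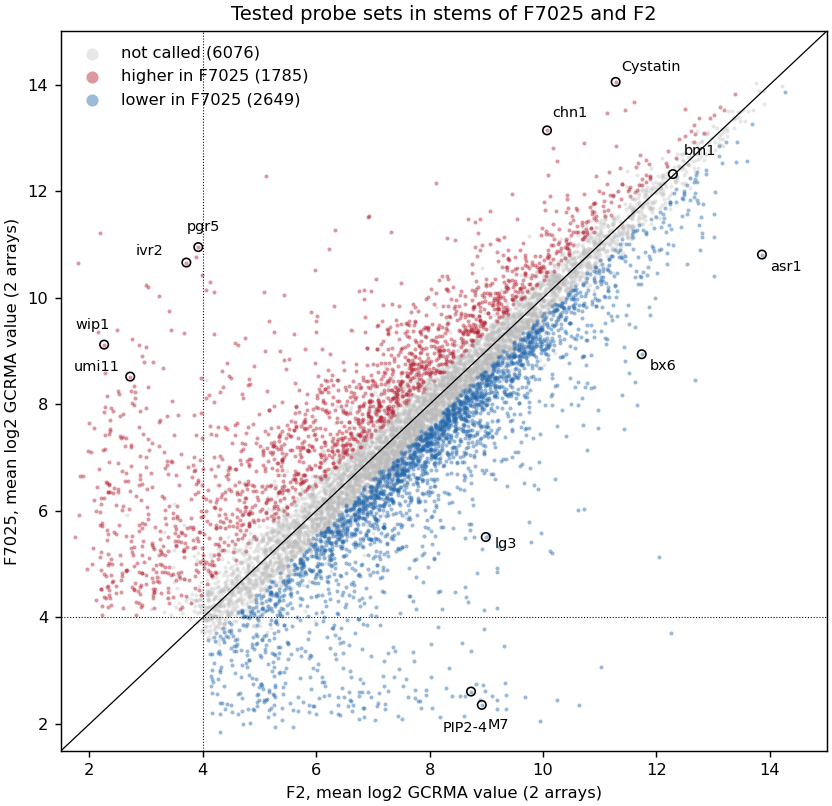
Mean log2 GCRMA value of each tested probe set in F7025 (vertical axis) against F2 (horizontal axis), over 2 arrays each. Red points passed the limma threshold and were higher in F7025 (1785), blue points were lower (2649), grey points did not pass (6076), dotted lines mark a value of 4 and circles mark 12 named genes, with pgr5 and ivr2 far above the diagonal, PIP2-4 and M7 far below it and bm1 on it.

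Of the 783 named genes tested, 364 (46.5%) passed, 167 (21.3%) higher in F7025 and 197 (25.2%) lower, and the median difference over all 783 was −0.07 log2. A difference of at least 1 log2 was met by 99 of the higher and 93 of the lower genes. In 49 of the 364 the mean of 1 line was under 4, with F2 the dim line in 34 and F7025 in 15. Such a gene entered the test through its bright line alone, so that the filter set its direction. Its fold is printed as at least so many fold, with the dim line set to 4. A difference in the transcript sequence that a probe set binds and a difference in transcript level cannot be told apart on this array, and neither can fewer cells of a type and less RNA per cell.

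Genes of lignin synthesis differed little between the stems. The cinnamoyl-CoA reductase gene cncr1, which acts in the branch that leads to lignin monomers, read 12.04 and 11.81 in F7025 and 11.11 and 11.25 in F2. It was 1.68-fold higher in F7025 (0.75 log2, SE 0.19, limma adjusted p = 0.0133), but not past the threshold without F7025 replicate 1 (adjusted p = 0.0772) or F2 replicate 1 (0.0847). The 4-coumarate ligase gene 4CL read 12.32 and 11.95 in F7025 and 11.61 and 11.77 in F2, a difference of 0.45 log2 that did not pass (adjusted p = 0.107). For bm1, the brown midrib gene of cinnamyl alcohol dehydrogenase, the arrays of the lines overlapped, at 12.50 and 12.15 in F7025 and 12.30 and 12.28 in F2 (0.03 log2, SE 0.13, adjusted p = 0.865). pal3, of the phenylalanine ammonia-lyase that opens the pathway, also overlapped, at 13.05 and 13.03 in F7025 and 13.04 and 13.15 in F2 (−0.06 log2, adjusted p = 0.647). In this list 1 of 4 tested genes was called, beside 46.5% of all named genes, and all 4 were bright in both lines. Another reductase gene, cncr2, did not reach the filter, with 2.55 to 4.78 on the 4 arrays.

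Peroxidases and laccases are classes that include enzymes of lignin polymerisation. All 3 tested genes of this list were called, 1 higher in F7025 and 2 lower, beside 46.5% of all named genes called. Whether these members act on lignin was not tested. The peroxidase gene PER42 read 10.21 and 10.06 in F7025 and 6.48 and 7.23 in F2, 9.77-fold higher in F7025 (3.29 log2, SE 0.40, adjusted p = 0.000343). The other tested peroxidase gene, pox2, was at the floor in F7025 with 2.31 and 2.34, against 6.49 and 5.40 in F2. It was at least 3.84-fold lower (adjusted p = 4.64e-05), but met the filter through F2 alone, so that it could only be called lower. The laccase gene LAC1 read 5.68 and 6.0 in F7025 and 6.72 and 6.76 in F2, 1.87-fold lower (adjusted p = 0.0185). That laccase call was lost without F7025 replicate 1 (adjusted p = 0.103), F2 replicate 1 (0.0783) or F2 replicate 2 (0.0866). PER42 was low in F2 against every other line, since the means of F7033, F98902 and Cm484 lay between 9.01 and 10.01, while pox2 was near the floor in those lines too (2.31 to 3.43).

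Of 14 tested cellulose synthase and COBRA-like genes, 6 were higher in F7025, 1 was lower and 7 did not pass. That is 50% called, beside 46.5% of all named genes, with a list median of 0.65 log2 beside −0.07 for all. The largest difference was that of CesA-8, with 9.31 and 8.23 in F7025 and 7.25 and 7.34 in F2, 2.79-fold higher (adjusted p = 0.0363). CesA-6 read 10.41 and 10.07 in F7025 and 8.95 and 9.18 in F2, 2.26-fold higher (1.18 log2, SE 0.21, adjusted p = 0.00276), and was the single member that stayed higher in F7025 whichever of the 4 arrays was left out. Among the synthases of secondary walls, CesA12 read 12.04 and 11.80 in F7025 and 11.01 and 11.47 in F2, 1.61-fold higher (adjusted p = 0.0239). The other secondary wall genes had differences of like size that did not pass: 0.66 log2 for cesa11 (adjusted p = 0.0824), 0.55 for cesa10 (0.125) and 0.67 for bk2, the brittle stalk gene of the COBRA-like family (0.16). CesA-1, CesA-9 and Bk2L3 were 1.53-fold, 1.56-fold and 1.59-fold higher, with adjusted p between 0.0241 and 0.0446. CesA-5 was the member that was lower, with 8.77 and 8.47 in F7025 and 9.12 and 9.22 in F2 (1.46-fold, adjusted p = 0.0116). The remaining members did not pass, with CesA-2 at 0.80 log2 (adjusted p = 0.0554), CesA-7 at 0.07, CesA-3 at 0.00 and CesA-4 at −0.61.

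These calls depended on single arrays. Replicate 1 of F7025 read above replicate 2 for all 14 genes, with a median gap of 0.55 log2, nearly as much as the lines differed, and the part of this spread in the result was not tested. Without F7025 replicate 1, 1 member was higher and 2 were lower, with a median of 0.34. Without F2 replicate 1 the counts were 1 and 1, and without F2 replicate 2 they were 3 and 0, while without F7025 replicate 2 they were 9 and 0 with a median of 0.89. The calls of CesA-8, Bk2L3 and CesA-9 were each lost without F7025 replicate 1 (adjusted p = 0.215, 0.155 and 0.243), without F2 replicate 1 (0.138, 0.163 and 0.206) and without F2 replicate 2 (0.116, 0.055 and 0.0877). Those of CesA12 and CesA-1 were lost without F7025 replicate 1 (0.123 and 0.138) or F2 replicate 1 (0.167 and 0.157), and that of CesA-5 without F7025 replicate 2 (0.0525) or F2 replicate 2 (0.0768).

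**Figure D2:**
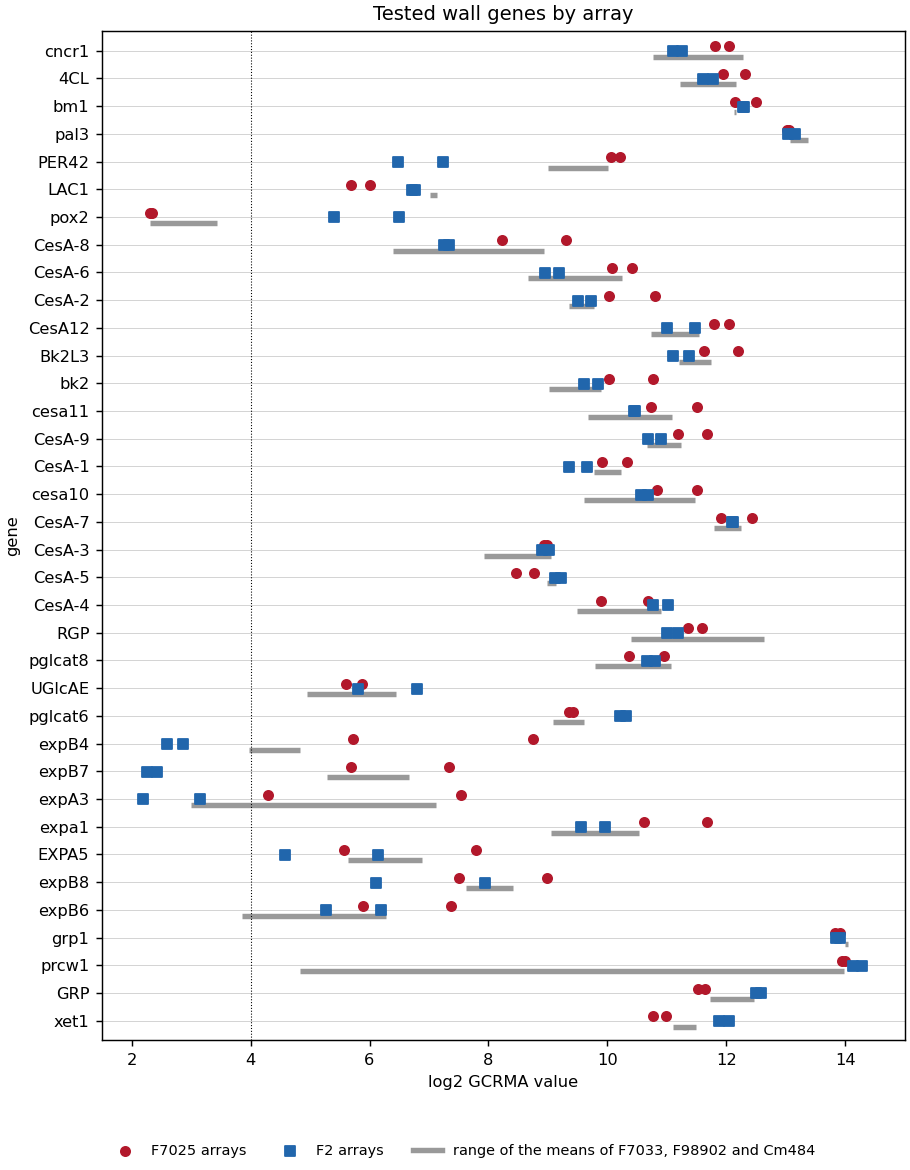
Log2 GCRMA values (horizontal axis) of the 36 tested wall genes on each F7025 array (red circles) and each F2 array (blue squares), with a grey bar for the range of the means of the other 3 lines and a dotted line at 4. The lignin genes lie together above 11, the cellulose synthase genes are shifted by less than 2 log2, and the expansin genes have the widest gaps between the 2 arrays of F7025.

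Enzymes of nucleotide sugars and hemicellulose gave 1 call among 4 tested (25%, beside 46.5% of all named genes). The glucuronosyltransferase gene pglcat6 read 9.35 and 9.42 in F7025 and 10.31 and 10.21 in F2, 1.83-fold lower (−0.87 log2, SE 0.10, adjusted p = 0.00026). Its relative pglcat8 overlapped between the lines, at 10.95 and 10.37 in F7025 and 10.67 and 10.81 in F2. RGP, of a reversibly glycosylated polypeptide, differed by 0.37 log2 (adjusted p = 0.352). UGlcAE, of a UDP-glucuronate epimerase, differed by −0.56 log2 (adjusted p = 0.386), although another probe set of that gene passed at −2.32 log2.

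Expansins are proteins that loosen the wall during growth. Of 7 tested expansin genes 2 passed, both higher in F7025 and at the floor in F2. Both passed the filter through F7025 alone, so that they could only be called higher. The beta-expansin gene expB7 read 7.34 and 5.69 in F7025 and 2.25 and 2.43 in F2, at least 5.71-fold higher (adjusted p = 0.000173). Its fold was at least 3.22 without F7025 replicate 1 and at least 10.1 without replicate 2. expB4 read 8.75 and 5.73 in F7025 and 2.86 and 2.60 in F2, at least 9.44-fold higher (adjusted p = 0.00734), or at least 3.31-fold without F7025 replicate 1 and at least 26.9-fold without replicate 2. Its call was lost without the 3 arrays of the series made from 20 µg RNA (adjusted p = 0.0552). The 5 other tested expansin genes had positive differences of 0.90 to 3.25 log2 that did not pass, with adjusted p from 0.0694 for expA3 to 0.492 for EXPA5. The filter was likewise met by expA3 through F7025 alone. On all 7, F7025 replicate 1 read above F7025 replicate 2, and over the 11 genes of the list it did so by a median of 1.47 log2. The list median of 1.21 log2 was 0.21 without F7025 replicate 1 and 0.43 without F2 replicate 1.

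Among the 4 other tested genes of the list 2 were lower in F7025. The xyloglucan endotransglycosylase gene xet1, of an enzyme that cuts and rejoins xyloglucan, read 10.77 and 10.99 in F7025 and 12.04 and 11.88 in F2, 2.11-fold lower (adjusted p = 0.00286). The glycine-rich protein gene GRP read 11.52 and 11.64 in F7025 and 12.58 and 12.50 in F2, 1.95-fold lower (adjusted p = 0.000231). Another glycine-rich protein gene, grp1, overlapped at 13.91 and 13.83 in F7025 and 13.92 and 13.85 in F2. The proline-rich wall protein gene prcw1 was bright in both lines, with 14.00 and 13.94 in F7025 and 14.14 and 14.29 in F2 (−0.25 log2, adjusted p = 0.192). In all, 2 of the 11 tested members of this list were higher and 2 lower (36.4%, beside 46.5% of all named genes called). Another 8 members, HRGP among them (2.15 to 2.26), did not reach the filter.

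Of 6 tested genes known from responses to pathogens and wounding, 5 were called higher in F7025, by large folds. The filter set that direction for 3 of them, pr5, wip1 and umi11. Over all named genes, 21.3% were called higher. The stems were not treated. The thaumatin-like gene pr5 read 10.37 and 10.47 in F7025 and 4.15 and 3.84 in F2, at least 81.5-fold higher (adjusted p = 3.51e-07). wip1, of a wound-induced proteinase inhibitor, read 9.15 and 9.09 in F7025 and 2.25 and 2.27 in F2, at least 34.8-fold higher (adjusted p = 8.27e-06). The smut-induced gene umi11 read 8.30 and 8.74 in F7025 and 2.68 and 2.76 in F2, at least 22.9-fold higher (adjusted p = 2.35e-07). These 3 genes were at or near the floor in F2 and 4 or more log2 units above it in F7025. They met the filter only through F7025, so that they could only be called higher.

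The chitinase gene chn1, of an enzyme that cuts fungal chitin, was bright in both lines, at 13.16 and 13.11 in F7025 and 10.17 and 9.97 in F2, 8.36-fold higher (3.06 log2, SE 0.19, adjusted p = 7.22e-06). prp4, of a pathogenesis-related protein, read 9.53 and 8.96 in F7025 and 5.35 and 4.15 in F2, 22.5-fold higher (adjusted p = 0.000132), with folds of 34.1 without F2 replicate 1 and 14.9 without F2 replicate 2. The sixth gene, prp2, read 7.03 and 4.22 in F7025 and 6.33 and 5.93 in F2 and did not pass (−0.51 log2, adjusted p = 0.734). The list median was 5.15 log2, or 4.51 with genes at the floor taken at their bound. Both medians include pr5, wip1 and umi11, which could only be called higher, while chn1, prp4 and prp2 could have gone either way. The other lines did not all resemble F2: the means of F7033, F98902 and Cm484 spanned 8.23 to 10.49 for pr5 and 4.28 to 9.02 for wip1, but 10.63 to 11.00 for chn1 and 2.43 to 6.09 for umi11, below both F7025 arrays.

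Outside the wall and defence lists, several single genes differed by more than 10-fold. The gene pgr5, which acts in cyclic electron flow of photosynthesis, read 10.75 and 11.16 in F7025 and 3.84 and 4.00 in F2, at least 124-fold higher (adjusted p = 3.3e-07), and another of its probe sets passed in the same direction at 2.08 log2. ivr2, of a soluble acid invertase that splits sucrose in the vacuole, read 10.85 and 10.47 in F7025 and 3.72 and 3.70 in F2, at least 101-fold higher (adjusted p = 2.63e-07). spds2, of a spermidine synthase, read 9.38 and 9.41 in F7025 and 2.45 and 2.52 in F2, at least 42.1-fold higher (adjusted p = 2.48e-08). In all 3, F2 was below the other 3 lines, whose means spanned 6.71 to 10.17 for pgr5, 7.78 to 10.35 for ivr2 and 8.79 to 9.41 for spds2. The F7025 means of pgr5 and ivr2 lay above those ranges.

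Among genes measured in both lines, the cysteine proteinase inhibitor gene Cystatin read 14.00 and 14.09 in F7025 and 11.25 and 11.30 in F2, 6.82-fold higher (2.77 log2, SE 0.13, adjusted p = 1.31e-06). The gene LOC100037814, to which no role is given here, was 11.6-fold higher (adjusted p = 9.55e-05). On the lower side, M7, for which the gene table used here gives no description, read 2.34 and 2.37 in F7025 and 9.09 and 8.74 in F2, at least 30.2-fold lower (adjusted p = 6.96e-08), and it was at the floor in the other 3 lines as well (2.27 to 2.35). The prohibitin gene phb3, of a scaffold protein of the mitochondrial inner membrane, read 3.31 and 3.42 in F7025 and 7.57 and 7.20 in F2, at least 10.5-fold lower (adjusted p = 2.34e-06). The other lines had means of 6.67 to 6.97.

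Further genes were lower in F7025. The thiamine synthesis gene thi1 read 6.90 and 8.20 in F7025 and 11.01 and 10.92 in F2, 10.7-fold lower (adjusted p = 0.00034), with folds of 6.83 without F7025 replicate 1 and 16.8 without replicate 2. zmCL2-2 read 5.41 and 5.42 in F7025 and 9.80 and 9.77 in F2, 20.7-fold lower (adjusted p = 9.89e-07). The malate synthase gene mas1, of the glyoxylate cycle, was 6.76-fold lower (adjusted p = 1.69e-05). The haemoglobin gene Hb was 5.33-fold lower (adjusted p = 7.53e-06) and SAG 4.60-fold lower (3.24e-05). LOC542037 and GRF8 were at the floor in F7025, at least 9.30-fold and 4.28-fold lower. The serine acetyltransferase gene sat2, 4.57-fold lower with an adjusted p of 0.046, was the least certain of these: the call was lost without F7025 replicate 1 (0.237), F2 replicate 1 (0.103) or F2 replicate 2 (0.195), and its fold was 7.16 without F7025 replicate 2.

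**Figure D3:**
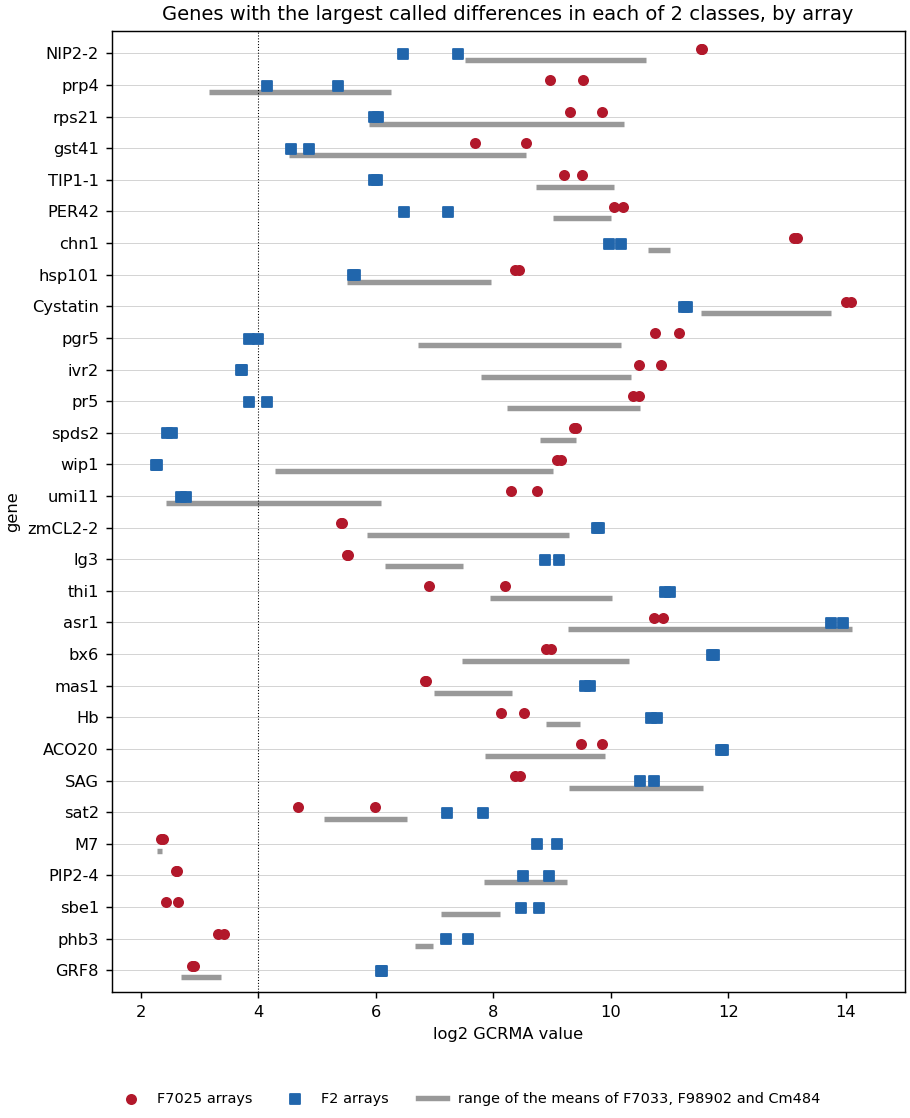
Log2 GCRMA values (horizontal axis) on each F7025 array (red circles) and each F2 array (blue squares) for 30 genes with a symbol, those with the largest called differences where both lines were at 4 or more and, ranked apart, those with the largest bounds where 1 line was under 4, with those higher in F7025 above those lower in F7025, with a grey bar for the range of the means of F7033, F98902 and Cm484 and a dotted line at 4. These 30 genes were picked for their difference between the lines, and the arrays of the lines do not overlap for any of them. Over all tested probe sets the arrays do not overlap at 75%. The grey bar lies near F7025 for some genes (spds2, GRF8) and near F2 for others (PIP2-4, phb3).

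Water channel genes changed in both directions with some of the largest folds. Aquaporins let water and small solutes through membranes, and those of the PIP class sit in the plasma membrane. PIP2-4 was at the floor in F7025 with 2.60 and 2.61, against 8.95 and 8.51 in F2, at least 26.5-fold lower (adjusted p = 2.01e-06), while the other 3 lines had means of 7.84 to 9.26. Its relative pip2-5 read 2.57 and 2.82 in F7025 and 5.12 and 4.86 in F2, at least 1.99-fold lower (adjusted p = 2.61e-05). Other genes of this class were higher in F7025. PIP2-1 read 11.79 and 11.44 in F7025 and 8.85 and 9.27 in F2, 5.90-fold higher (adjusted p = 3.92e-05). PIP2-2 and PIP2-6, under 4 in F2, were at least 7.05-fold and 2.90-fold higher. The bright genes PIP1-1, pip1-2 and PIP1-3 read 9.98 to 11.94 in both lines and did not pass, with differences of −0.18 to −0.03 log2. Of the 10 genes of the class, all tested, 5 were higher and 2 lower, with a median of 0.40 log2. The share called was 70%, beside 46.5% of all named genes. PIP2-2, PIP2-6 and both lower genes, PIP2-4 and pip2-5, met the filter through their bright line alone. The filter thus set the direction of these calls.

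Among aquaporins of the tonoplast (TIP) and of the NIP and SIP classes, 5 of 10 tested were higher and 3 lower. The share called was 80%, beside 46.5% of all named genes. NIP2-2 read 11.55 and 11.53 in F7025 and 6.46 and 7.40 in F2, 24.4-fold higher (4.61 log2, SE 0.33, adjusted p = 1.83e-05). TIP2-1 read 7.93 and 8.55 in F7025 and 2.74 and 2.87 in F2, at least 18.9-fold higher (adjusted p = 1.76e-06). It met the filter through F7025 alone, so that it could only be called higher. TIP1-1 read 9.50 and 9.20 in F7025 and 5.97 and 6.02 in F2, 10.3-fold higher (adjusted p = 5.86e-06). Both tonoplast genes were low in F2 against the whole series, since the other lines had means of 7.82 to 8.58 for TIP2-1 and 8.72 to 10.06 for TIP1-1. The 3 lower genes were NIP2-1 (1.59-fold), SIP1-1 (1.56-fold) and SIP2-1 (1.45-fold), and another probe set of NIP2-1 passed at −1.65 log2. None of these 3 calls held without F2 replicate 1 (adjusted p = 0.13, 0.072 and 0.124), those of NIP2-1 and SIP2-1 were lost without F7025 replicate 2 (0.0534 and 0.165), NIP2-1 was lost without F7025 replicate 1 (0.0812) and SIP2-1 without F2 replicate 2 (0.136).

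Of 15 tested genes of the photosystems, antennae and ferredoxins, 9 were higher and 3 lower, beside 21.3% of all named genes higher and 25.2% lower, with a median of 0.44 log2. Lhcb5-2, of an antenna protein of photosystem II, read 11.15 and 11.13 in F7025 and 8.99 and 9.63 in F2, 3.57-fold higher (adjusted p = 0.000549). Its relative Lhcb5-1 was 2.82-fold higher (adjusted p = 0.000261), and the ferredoxin gene fdx2 was 3.29-fold higher (0.000885). The photosystem I subunit gene psad1 went the other way, with 7.34 and 7.45 in F7025 and 9.26 and 9.40 in F2, 3.83-fold lower (adjusted p = 0.000197). The reductase gene L-FNRI was 1.65-fold lower (adjusted p = 0.00995, or 0.0738 without F2 replicate 2). The ferredoxin gene fdx3 was 1.29-fold lower (adjusted p = 0.03), which did not pass without any 1 of the 4 arrays (0.073 without F7025 replicate 1, 0.0796 without F7025 replicate 2, 0.152 without F2 replicate 1 and 0.0827 without F2 replicate 2). Over the list, 7 were higher and 1 lower without F2 replicate 2.

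In carbon fixation, 2 of 7 tested genes were higher and 1 lower (42.9%, beside 46.5% of all named genes called). The malic enzyme gene me2 read 9.81 and 9.90 in F7025 and 10.70 and 10.70 in F2, 1.80-fold lower (adjusted p = 0.000302). The Rubisco activase gene rca1 was 1.80-fold higher (adjusted p = 0.0116) and ssu1, of the Rubisco small subunit, 1.42-fold higher (0.0145). Both calls were lost without F2 replicate 1 (0.0848 and 0.114) or F7025 replicate 2 (0.0615 and 0.0682), and the list median of 0.32 log2 was −0.14 without F7025 replicate 2. Without F7025 replicate 1, 4 genes were higher and 1 lower. pep1, of the phosphoenolpyruvate carboxylase of C4 leaves, read 6.87 and 9.17 in F7025 and 7.12 and 7.05 in F2 and did not pass (adjusted p = 0.297).

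Sugar and starch genes were divided within each pathway. Of the tested genes 66.7% were called in the sucrose list and 81.8% in the starch list, beside 46.5% of all named genes. Besides ivr2, the sucrose phosphatase gene SPP2 was higher in F7025, at 4.49 and 4.69, against 2.36 and 2.58 in F2, at least 1.51-fold (adjusted p = 0.00024). Sucrose synthase splits or makes sucrose at the start of wall and starch synthesis, and all 3 tested genes of it were lower in F7025. sh1 read 9.98 and 9.71 in F7025 and 10.90 and 10.98 in F2, 2.14-fold lower (adjusted p = 0.000282), while sus1 and sus2 were 1.64-fold and 2.01-fold lower (0.00708 and 0.0243). The call of sus2 was lost without F7025 replicate 2 (0.12), F2 replicate 1 (0.117) or F2 replicate 2 (0.0816). The sucrose phosphate synthase gene sps1 was 2.81-fold lower (adjusted p = 0.0313), but 1.73-fold and not past the threshold without F7025 replicate 1 (0.18), 4.55-fold without F7025 replicate 2, and lost without F2 replicate 1 (0.113) or F2 replicate 2 (0.117). In all, 2 of 9 tested were higher and 4 lower, or 2 and 2 without either F2 array.

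In the starch list, 4 of 11 tested genes were higher and 5 lower, with a median of −0.36 log2. The branching enzyme gene sbe1 was at the floor in F7025 alone, at 2.63 and 2.43, against 8.78 and 8.47 in F2, at least 24.7-fold lower (adjusted p = 1.11e-07), with means of 7.11 to 8.12 in the other lines. The first step, ADP-glucose pyrophosphorylase, had small subunit genes that moved apart. Agp2 read 9.82 and 9.64 in F7025 and 7.79 and 7.54 in F2, 4.18-fold higher (adjusted p = 3.76e-05), and bt2 read 5.57 and 5.93 in F7025 and 7.34 and 7.49 in F2, 3.18-fold lower (0.000231). The starch synthase gene ss1 was 2.52-fold lower (adjusted p = 0.000447), and zSSIIb was 1.79-fold higher (0.0101, or 0.0565 without F2 replicate 1). The debranching enzyme gene iso2 was 1.76-fold higher (adjusted p = 0.005, or 0.0511 without the 3 arrays of the series made from 20 µg RNA). Without F7025 replicate 1 the counts were 4 higher and 3 lower, and without F2 replicate 1 they were 3 and 3.

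Benzoxazinoids are defence compounds of grasses, and 2 genes of their synthesis were lower in F7025. bx6, of a dioxygenase late in the pathway, read 8.98 and 8.90 in F7025 and 11.72 and 11.76 in F2, 6.96-fold lower (−2.80 log2, SE 0.20, adjusted p = 1.8e-05), and another of its probe sets passed at −3.14 log2. bx1, which makes the indole of the pathway, read 6.87 and 5.15 in F7025 and 7.78 and 8.05 in F2, 3.75-fold lower (adjusted p = 0.0443). That call was lost without F7025 replicate 2 (2.07-fold, 0.238), F2 replicate 1 (0.122) or F2 replicate 2 (0.168), and the fold was 6.82 without F7025 replicate 1. igl1, of an enzyme that also makes indole, was 1.48-fold higher (adjusted p = 0.0187). opr1 and opr5, of oxophytodienoate reductases, were at least 2.50-fold and 1.77-fold higher (adjusted p = 0.0228 and 0.0128). All 3 of these calls were lost without F2 replicate 1 (0.0887, 0.122 and 0.0613) or F2 replicate 2 (0.0789, 0.0618 and 0.0656), the 2 reductases also without F7025 replicate 1 (0.115 and 0.0792), and igl1 without F7025 replicate 2 (0.077). Of the 12 tested genes of jasmonate and benzoxazinoid synthesis, 3 were higher and 2 lower (41.7%, beside 46.5% of all named genes called). The list had a median of 0.02 log2, which was −0.05 without F7025 replicate 1 and −0.02 without F2 replicate 2. Its counts were 1 and 2 without F7025 replicate 1, 2 and 1 without F7025 replicate 2, and 0 and 1 without either F2 array.

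All 13 tested glutathione S-transferase genes passed, 6 higher and 7 lower, beside 46.5% of all named genes called, with differences from −1.93 to 5.73 log2. The other 18 genes of the list did not reach the filter. These enzymes join glutathione to toxic compounds. gst18 read 8.05 and 8.45 in F7025 and 2.50 and 2.53 in F2, at least 19-fold higher (adjusted p = 7e-05). gst41 was 10.7-fold higher (adjusted p = 2.58e-05), and GST38, under 4 in F2, was at least 5.69-fold higher (1.29e-05). On the lower side, gst10 read 4.84 and 4.76 in F7025 and 6.81 and 6.66 in F2, 3.81-fold lower (adjusted p = 0.00192), GST3 was 3.20-fold lower (0.000502) and gst30 2.93-fold lower (0.00396). Without 1 of the 4 arrays, 5 or 6 members were higher and 5 or 6 lower.

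Regulatory genes were more often lower in F7025, 12 of 20 tested against 3 higher, beside 25.2% of all named genes lower. lg3, a KNOTTED-type homeobox gene, read 5.53 and 5.50 in F7025 and 8.87 and 9.11 in F2, 11.2-fold lower (−3.48 log2, SE 0.16, adjusted p = 1.07e-06). myb31 and myb42 encode MYB factors known as repressors of lignin genes. myb31 read 5.26 and 4.75 in F7025 and 6.73 and 6.42 in F2, 2.97-fold lower (adjusted p = 0.000737). myb42 read 5.52 and 5.79 in F7025 and 6.45 and 6.98 in F2, 2.08-fold lower (adjusted p = 0.0113). Its call was lost without F7025 replicate 1 (0.0666) or F2 replicate 2 (0.0884). The meristem gene kn1 read 9.06 and 9.08 in F7025 and 9.33 and 9.28 in F2 and did not pass (−0.23 log2, adjusted p = 0.0881). Without F7025 replicate 1, 1 member was higher and 10 were lower, and without F2 replicate 2 the counts were 1 and 7.

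The higher regulators were the MADS-box genes zmm24 and zmm31 and the homeobox gene ocl3. zmm31 read 4.30 and 4.19 in F7025 and 2.89 and 2.97 in F2, at least 1.18-fold higher (adjusted p = 0.000244). zmm24 was 1.80-fold higher (adjusted p = 0.0352), a call lost without F7025 replicate 1 (0.204) or F2 replicate 2 (0.208). ocl3 was at least 2.38-fold higher (adjusted p = 0.0368), a call lost without any 1 of the 4 arrays (0.0548 without F7025 replicate 1, 0.164 without F7025 replicate 2, 0.165 without F2 replicate 1 and 0.0879 without F2 replicate 2). The list held 50 genes, and 30 of them did not reach the filter in these stems.

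In hormone pathways, 6 of 27 tested genes were higher and 10 lower, beside 21.3% of all named genes higher and 25.2% lower. Cytokinin is sensed by histidine kinases that pass phosphate through transfer proteins to response regulators. Its phosphotransfer gene HP3 read 7.31 and 7.50 in F7025 and 2.50 and 2.58 in F2, at least 10.6-fold higher (adjusted p = 2.94e-07), and the other lines had means of 8.04 to 8.39. The response regulator gene crr1 was 3.94-fold higher (adjusted p = 0.00245). The receptor kinase genes moved apart, with HK1 3.58-fold higher (adjusted p = 4.14e-05) and hk2 2.80-fold lower (0.000471). ACO20, of an oxidase that makes ethylene, read 9.49 and 9.84 in F7025 and 11.90 and 11.88 in F2, 4.66-fold lower (adjusted p = 0.000445). The gibberellin synthesis gene an1 read 5.83 and 5.99 in F7025 and 7.82 and 8.29 in F2, 4.42-fold lower (adjusted p = 0.000247). Without F2 replicate 1 or F2 replicate 2 the counts were 6 higher and 6 lower.

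Of 12 tested genes of heat shock, dehydration and polyamines, 8 were lower and 3 higher, beside 25.2% of all named genes lower and 21.3% higher, with a median of −0.83 log2. asr1, a gene of the abscisic acid, stress and ripening family, read 10.74 and 10.88 in F7025 and 13.75 and 13.96 in F2, 8.25-fold lower (adjusted p = 0.000156), though another of its probe sets gave −0.87 log2. The dehydrin gene dhn2, of a protein of drying tissue, read 11.02 and 10.78 in F7025 and 12.78 and 12.77 in F2, 3.67-fold lower (adjusted p = 0.000662), and its 2 further probe sets passed at −2.36 and −2.56 log2. The polyamine oxidase gene mpao1 was 3.51-fold lower (adjusted p = 0.00988, or 0.0574 without F7025 replicate 2 and 0.0568 without F2 replicate 2). Besides spds2, the higher genes were the chaperone genes hsp101, at 8.44 and 8.36 in F7025 and 5.64 and 5.61 in F2 (6.84-fold, adjusted p = 0.000453), and hsp22 (5.45-fold, 0.000497). The count of lower genes was 5 without F7025 replicate 2 and 4 without F2 replicate 2, while the 3 higher genes held whichever of the 4 arrays was left out.

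Tubulins, which form the microtubules that guide cellulose deposition, numbered 4 higher and 1 lower of 12 tested, with a median of 0.25 log2. The share called was 41.7%, beside 46.5% of all named genes. tub5 read 12.70 and 12.49 in F7025 and 11.73 and 11.88 in F2, 1.72-fold higher (0.78 log2, SE 0.12, adjusted p = 0.0012). tub4 was 2.13-fold higher (adjusted p = 0.0106), a call lost without F2 replicate 1 (0.053) or F2 replicate 2 (0.0576). tubg1 was 1.36-fold higher (adjusted p = 0.0417), a call lost without F7025 replicate 1 (0.186), F2 replicate 1 (0.12) or F2 replicate 2 (0.177). tub2 was 2.24-fold lower (adjusted p = 0.0103, or 0.0617 without F2 replicate 2). Without F2 replicate 1 the counts were 1 and 1, without F2 replicate 2 they were 2 and 0, and without F7025 replicate 1 they were 2 and 1.

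Genes of the cell cycle and of chromatin numbered 2 higher and 4 lower of 11 tested (54.5%, beside 46.5% of all named genes called). The linker histone gene his1a read 10.40 and 10.44 in F7025 and 11.88 and 11.77 in F2, 2.65-fold lower (adjusted p = 1.15e-05), and hon101, of another linker histone, was 1.99-fold lower (0.00465). The cell cycle kinase gene cdc2 read 7.87 and 7.80 in F7025 and 9.08 and 8.99 in F2, 2.29-fold lower (adjusted p = 0.000505), and another of its probe sets passed at −4.52 log2. pcna2, of a sliding clamp of DNA replication, read 5.11 and 6.11 in F7025 and 2.35 and 2.52 in F2, at least 3.05-fold higher (adjusted p = 0.0019). Its relative pcna1 overlapped between the lines, at 6.23 and 6.70 in F7025 and 6.67 and 6.59 in F2. The histone gene his2b5 was 2.39-fold higher (adjusted p = 0.0239), a call lost without F7025 replicate 1 (0.147), F2 replicate 1 (0.0656) or F2 replicate 2 (0.124), which left 1 higher gene in the list each time.

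Of 19 tested cytosolic ribosomal protein genes 3 were higher and 1 lower (21.1%, beside 46.5% of all named genes called), with a median of 0.06 log2, or −0.08 without F7025 replicate 2. The exception in size was rps21, with 9.30 and 9.85 in F7025 and 5.96 and 6.04 in F2, 11.9-fold higher (adjusted p = 2.49e-06), while the means of the other lines ran from 5.88 to 10.22. rpl39 was 1.63-fold higher (adjusted p = 0.00486). RPS10 was 1.53-fold higher (adjusted p = 0.0312), a call lost without F7025 replicate 2 (0.155), F2 replicate 1 (0.105) or F2 replicate 2 (0.13). rpp2a-4 was 1.57-fold lower (adjusted p = 0.0306), and its call was lost without F7025 replicate 1 (0.107), F2 replicate 1 (0.0902) or F2 replicate 2 (0.138). The counts of the list were 4 and 0 without F7025 replicate 1, 2 and 3 without F7025 replicate 2, and 2 and 0 without either F2 array.

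**Figure D4:**
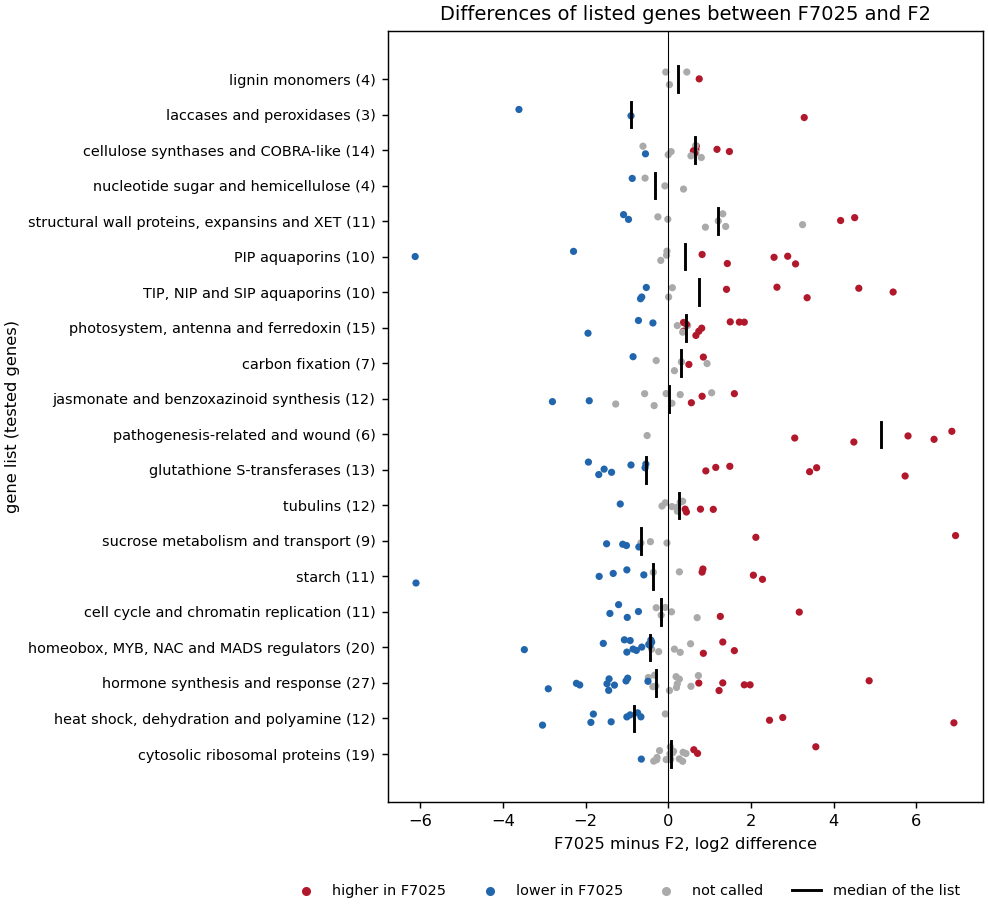
Log2 difference, F7025 minus F2 (horizontal axis), of each tested gene in 20 gene lists (vertical axis, with the number of tested genes), where red points were called higher in F7025, blue points lower and grey points not called, and black bars mark list medians. The median of the pathogenesis-related and wound list is 5.15, that of the heat shock, dehydration and polyamine list −0.83, and the ribosomal protein genes gather around 0 apart from rps21.

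The other 3 lines were set beside F7025 and F2. For each of the 364 called genes the means of F7025 and F2 were set against the range of the means of F7033, F98902 and Cm484. F2 alone lay outside that range for 111 genes, F7025 alone for 79, both for 124 and neither for 50. Cm484 was nearer to F7025 than to F2 for 254 of the 364 genes, F7033 for 176 and F98902 for 173. These counts describe line means and were not tested.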

How the data were processed

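Total stem RNA of 5 maize lines, 2 pools per line, was hybridised to 10 Affymetrix maize arrays. The deposited table held log2 values that the authors made with GCRMA, per the submitters' processing notes, and the version is not given in the sources used here. That values are on a log2 scale was judged from their range. Scanner files were not used here, and no further normalization was applied. The 113 array control and 66 reporter control probe sets were left out, and probe sets at log2 4 or more on at least 2 of the 4 F7025 and F2 arrays were tested (10510). The annotation named 1 gene for 1452 probe sets, several for 1 and none for 16102, and 1060 of its 1108 genes matched the B73 reference gene table by identifier. Of several probe sets of a gene, the one brightest on average over the 10 arrays was used, and 783 genes were tested.

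The contrast of F7025 with F2 came from limma 3.58.1 under R 4.3.3 (lmFit and eBayes, trend in the variance). The model held the 5 lines and all 10 arrays, with 5 residual and 3.29 prior degrees of freedom. The Benjamini-Hochberg adjustment ran over all tested probe sets, and an adjusted p under 0.05 was called. Every adjusted p in the text comes from limma, and p-values measure the spread between pools. All lines share 1 estimate of the spread, so the p of a gene at the floor in 1 line can understate it. Data were simulated over 10510 probe sets with 100 changes of 1 log2 and 100 of 2 log2, all others equal in the 2 lines. Of these changes, 65 of 100 and 92 of 100 were called, along with 12 unchanged probe sets. In the real data 42.2% of probe sets passed. The Benjamini-Hochberg cutoff depends on the share that differs, so the simulated rates do not carry over to the real comparison. Python 3.11.15, pandas 2.3.3 and matplotlib 3.10.9 made the tables and plots.

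Genes were named by rule: the 10 largest called differences in each direction where both lines were at least 4, the 6 largest bounds in each direction otherwise, every tested gene of 5 wall lists, and the 3 largest called differences in each direction of the other lists, with genes under 4 ranked by their bound. PIP1-1, pip1-2, PIP1-3, prp2, pep1, sus1, kn1, pcna1 and gz27 were added after their values were seen. The comparison, the gene lists and their members were chosen with earlier results of these data known. Alternatives changed the arrays, filter, normalization, variance model, replicate block, call rule and probe set choice.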

Additional observations from a re-analysis of the deposited data

How the results depend on the processing

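The number of arrays, 2 per line, limits every value, and the arrays give no read depth. Leaving out each of the 10 arrays in turn gave 2840 to 4904 probe sets called and 247 to 404 named genes. Without the 3 arrays from 20 µg RNA (the second of F2, Cm484 and F98902) 2779 probe sets and 236 named genes were called, a fit that leaves F2 with 1 array whose spread is taken from the other lines. A minimum of 1 log2 left 2197 probe sets and 192 named genes, and a Bonferroni adjustment left 558 probe sets. The other filters, normalizations, variance models, array weights and the 4 arrays alone gave 3708 to 4509 probe sets. Centring each array on its median moved the median difference of tested probe sets from −0.12 to −0.01 log2 and the share of calls higher in F7025 from 40.3% to 50.2% (2153 higher and 2140 lower). Among named genes, centring gave 201 higher and 161 lower, and quantile normalization gave 177 and 175. Replicate numbers are not said to mark a shared block, and same-numbered arrays of F7025 and F2 did not deviate together (r = −0.00, with −0.37 to 0.40 over the 10 pairs of lines). The highest values were 0.40 for Cm484 and F98902, 0.37 for F2 and F98902 and 0.28 for Cm484 and F2. These are the lines whose replicate 2 came from 20 µg RNA, and a part of the RNA amount in this was not tested. With a replicate block, 4471 probe sets and 372 named genes were called. Of 107 genes that passed by the naming rule, 72 kept the call under every alternative, 33 lost it without 1 of the 4 arrays and 35 under any alternative (expB4 and iso2 were lost only without the 20 µg arrays), and no called gene changed sign. These counts of kept and lost calls leave out the minimum of 1 log2 and the Bonferroni adjustment, under which further calls fail. A gene no longer tested with the filter at 6, such as pox2, was not counted as lost. Sign changes touched genes that had not passed and some list medians. Leaving out each array in turn gave −0.14 to 0.21 for bm1, −0.19 to 0.34 for CesA-7, −0.06 to 0.06 for CesA-3, −0.37 to 0.21 for pglcat8, −0.06 to 0.03 for grp1, and −0.33 to 0.51 for the zein gene gz27. List medians ran from −0.14 to 0.62 for carbon fixation (0.32 over all arrays), −0.05 to 0.19 for jasmonate and benzoxazinoid synthesis, and −0.08 to 0.26 for ribosomal proteins. The jasmonate and benzoxazinoid median was −0.02 without the 20 µg arrays and −0.19 with a filter at 6. With that filter pox2 was no longer tested, and the median of laccases and peroxidases was 1.19, in place of −0.90. Centring gave pal3 0.05, pglcat8 0.03 and grp1 0.09, and the mean of probe sets gave pglcat8 0.06. Other causes were not tested.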

Other observations

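For 41 called genes more than 1 probe set was tested, and for 31 of these another probe set passed in the same direction. For 4 a further probe set passed in the opposite direction. IIG1 differed by −0.96 log2 on the probe set used and by 5.95 and 6.08 log2 on others. PDC (LOC542651), of a pyruvate decarboxylase, differed by 1.07 log2, with another probe set at −2.41. obf3.2, a gene of a DNA-binding factor, differed by 0.78 log2, with another at −1.31, and LOC542358 by −0.70, with another at 1.09. These 4 genes were picked after their values were seen, and no direction is given for them.

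Most probe sets that differed carry no gene name here. Among those above 4 in both lines, the one with the largest rise read 12.16 and 12.40 in F7025 and 5.50 and 4.74 in F2, 143-fold higher (limma adjusted p = 3.45e-07), with folds of 110 to 186 when 1 of the 4 arrays was left out. The one with the largest fall read 4.23 and 6.02 in F7025 and 11.82 and 12.27 in F2, 121-fold lower (adjusted p = 1.67e-05), or 65.0-fold without F7025 replicate 1 and 225-fold without replicate 2.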
